A study of Mus musculus with 12 samples.

Results

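E47 knockout neural stem cells were compared with cells of their wild-type litter mates in 3 E47KO and 3 E47wt libraries, which are 6 of the 12 libraries of the series. All came from E14.5 embryos of C57BL/6J mice and were grown as proliferating cultures in medium with FGF-2 and EGF. E47KO cells were E47-/- and E47wt cells E47+/+; neither carried another allele named in the labels. The other 6 libraries, of an E12+/+ and E12-/- line grown the same way, were used beside them only for comparison. The labels do not say whether the 3 replicates of a group were separate embryos or cultures, so p-values measure the spread between these libraries, which may be technical. They also do not say how the E47 form was removed. RNA was read as stranded mRNA libraries, and reads were counted per gene on the strand opposite to the read.

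E47 and E12 are the splice forms of Tcf3, 1 of the class I basic helix-loop-helix factors called E proteins. E proteins pair with each other or with tissue-specific partners such as Olig2 and bind the E-box, a short DNA motif of the form CANNTG, while the Id proteins lack a DNA-binding region and hold E proteins off DNA. In the developing brain these pairs take part in the choice between self-renewal of neural stem cells and differentiation into neurons or glia. A gene count adds up both splice forms, so it cannot show the loss of E47 alone.

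The libraries held 34515297 to 56835783 gene reads each, and 3 reads, the limit that a count of 0 allows, corresponded to 0.0528 to 0.0869 CPM (counts scaled to library size, per 1000000 reads). E47KO replicate 2 stood apart: its log2 levels correlated with those of the other 5 libraries at 0.963 to 0.977, while all pairs without it correlated at 0.986 or more, and it alone lay at 66.7 on a first principal component that held 54.9% of the variance (the others between -29.2 and -0.638). E47wt replicates 1 and 3 expressed the X-linked RNA Xist at 895 and 1120 CPM, whereas E47wt replicate 2 and all 3 E47KO libraries had Y-linked transcripts at a summed 198 to 247 CPM. Genotype and sex are thus confounded in part, and results below are for autosomal genes. The cells carried the stem cell markers of their label in both groups: Sox2, a stem cell transcription factor, was at 258, 237 and 204 CPM in E47wt and 237, 266 and 213 CPM in E47KO, and Nes, an intermediate filament of neural progenitors, at 1498, 1588 and 1557 against 1496, 1288 and 1695 CPM.

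Tested across all 14965 genes with edgeR's quasi-likelihood test, 2 genes passed a Benjamini-Hochberg (BH) adjusted p of 0.05, a share of 0.0134%. They are Tdg, a DNA glycosylase that removes thymine from G:T mismatches, and Gm9855 (chromosome 10), a processed pseudogene in the reference; both serve only as a yardstick. Tdg (ENSMUSG00000034674, chromosome 10) was at 186, 182 and 177 CPM in E47wt and 58.6, 47.5 and 55.2 CPM in E47KO, a log2 fold change of -1.75 ± 0.11 (SE). Gm9855 (ENSMUSG00000085666) went from 0.247, 0.714 and 0.364 CPM to 49.0, 43.3 and 52.3 CPM. With sex as a covariate, or without E47wt replicate 1, E47wt replicate 3 or E47KO replicate 1, Tdg missed the threshold (edgeR adjusted p 0.252, 0.102, 0.0882 and 0.0560), as did Gm9855 without E47wt replicate 3 (0.0712). No other autosomal gene was called, and the other genes named below have edgeR adjusted p-values between 0.971 and 0.997. Their fold changes are therefore descriptions of these 6 libraries. At an unadjusted p under 0.05 there were 161 higher (1.16% of 13882 autosomal genes) and 142 lower (1.02%). In all, 328 genes passed that unadjusted threshold, X- and Y-linked genes included, and 493 passed with the replicate number as a block.

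The E-protein genes themselves moved little. Tcf3 (ENSMUSG00000020167, chromosome 10) was at 84.6, 76.2 and 97.6 CPM in E47wt and 118, 114 and 107 CPM in E47KO, a log2 fold change of 0.39 ± 0.12. All 3 knockout libraries lay above all 3 wild types, and the 2 groups overlapped after a correction for GC content and gene span, which left 0.18. Tcf4, an E protein of the same class, had a log2 fold change of -0.02 ± 0.12 and Tcf12, the remaining E protein, -0.09 ± 0.09. Of the Id inhibitors, Id4 rested on replicate 2: it was at 10.6, 11.5 and 7.77 CPM in E47wt and 14.1, 27.6 and 6.93 CPM in E47KO, with a log2 fold change of 0.70 that dropped to 0.08 without replicate 2. Cdkn1c, the cyclin-dependent kinase inhibitor p57, was at 6.41, 8.41 and 4.04 CPM against 7.48, 15.9 and 3.95 CPM, 0.53 ± 0.50 with all libraries and -0.14 without replicate 2.

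A gene was counted as steady when its mean was at least 1 CPM, all 3 E47KO libraries lay on one side of all 3 E47wt libraries, and the sign held when each library was left out in turn. Without the level minimum, groups did not overlap for 578 higher (4.16%) and 522 lower (3.76%) of the 13882 autosomal genes. Of the steady genes, 486 were higher and 458 lower, among 11882 autosomal genes at that level. Of them, 10 and 24 kept at least a 1.5-fold difference in every leave-one-out fit. Some genes would separate in this way between unrelated groups of 3 libraries too, and how many was not tested. The shares above are thus not shown to exceed what such groups would give, and a steady gene is not a called gene. The genes with the largest smallest difference are described next, 10 lower and 9 higher.

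Of the 10 steady lower genes, Cntn1, Syt1, Dpp10, Plppr5 and Pcdh15 are given first. They code for membrane proteins, as does Lrp1b, which is given further below. Cntn1, contactin 1, a cell adhesion molecule of axons, was at 169, 106 and 158 CPM in E47wt and 79.1, 67.9 and 83.2 CPM in E47KO, a log2 fold change of -0.91 ± 0.19. As the rule for steady genes requires, its highest knockout library lay below its lowest wild type. The difference was -0.83 without replicate 2. Syt1, the calcium sensor of synaptic vesicles, was at 13.8, 11.9 and 26.2 CPM against 7.603, 4.13 and 9.92 CPM (-1.26 ± 0.40). Here E47wt replicate 3 stood above the other wild types, and the difference without it was -0.82. Dpp10, an auxiliary subunit of A-type potassium channels, was at 5.94, 3.81 and 6.33 CPM against 2.93, 2.77 and 3.07 CPM (-0.87 ± 0.24). Plppr5, a membrane protein related to lipid phosphatases, was at 11.2, 5.67 and 8.77 CPM against 5.30, 3.19 and 4.45 CPM (-0.99 ± 0.31). In both genes E47wt replicate 2 was the lowest wild type, close to the highest knockout library. Pcdh15, a protocadherin best known from the tip links of inner-ear hair cells, was at 19.9, 10.9 and 15.1 CPM against 6.26, 10.8 and 6.25 CPM (-0.98 ± 0.30). For Pcdh15 replicate 2 was the knockout library nearest to the wild types, and the difference without it was -1.29.

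The remaining steady lower genes have varied roles. Adamts3, a protease that trims procollagen, was at 37.6, 37.97 and 28.9 CPM in E47wt and 23.4, 10.7 and 15.5 CPM in E47KO (-1.07 ± 0.28). Ckmt1, the mitochondrial creatine kinase, was at 2.12, 1.36 and 1.58 CPM against 1.06, 0.527 and 0.679 CPM (-1.15 ± 0.34). Replicate 2 was the lowest library for both. The other 2 knockout libraries lay below every wild type, as the rule for steady genes requires. Lrp1b, a large receptor of the LDL receptor family, was at 4.15, 3.03 and 3.70 CPM against 2.23, 2.00 and 1.86 CPM (-0.84 ± 0.22). Fgf5, a secreted fibroblast growth factor, was at 1.48, 1.84 and 1.13 CPM against 0.576, 0.8602 and 0.893 CPM (-0.93 ± 0.30), from 24 to 85 reads a library. The gene 1190007I07Rik (chromosome 10) was at 2.91, 3.61 and 2.89 CPM against 1.42, 1.39 and 1.63 CPM (-1.08 ± 0.22); it lies next to Tdg.

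Among the steady higher genes, the largest difference was in 2610203C22Rik (chromosome 1), a transcript without a named function, at 0.467, 0.411 and 0.535 CPM in E47wt and 1.97, 0.805 and 1.88 CPM in E47KO (1.72 ± 0.39). Replicate 2 was the lowest of its knockout libraries, and the difference without it was 2.02. Lix1 was at 2.17, 2.18 and 1.86 CPM against 3.93, 3.996 and 3.47 CPM (0.87 ± 0.20), with both groups tight. Foxo6, a forkhead transcription factor, was at 0.742, 0.649 and 0.941 CPM against 1.32, 1.36 and 1.45 CPM (0.82 ± 0.25). Zic4, a zinc-finger transcription factor of the developing brain, was at 1.26, 0.735 and 2.03 CPM against 2.54, 3.69 and 2.18 CPM (1.05 ± 0.40), so E47wt replicate 3 came close to the lowest knockout library. Cbs, cystathionine beta-synthase, was at 10.9, 13.8 and 10.01 CPM against 14.8, 37.96 and 20.7 CPM (1.08 ± 0.34), and Serpinb1a, a protease inhibitor, at 1.13, 1.17 and 1.16 CPM against 1.99, 3.64 and 1.501 CPM (1.04 ± 0.36). In these 2 genes replicate 2 was by far the highest library, and the differences were 0.62 and 0.60 without it. Dnaaf3, an assembly factor of ciliary dynein arms, was at 0.522, 0.887 and 0.963 CPM against 1.51, 2.30 and 1.09 CPM (1.03 ± 0.38). The pseudogene Nlrp5-ps was at 1.57, 1.23 and 1.60 CPM against 3.09, 3.55 and 2.16 CPM (1.00 ± 0.27). Rps4l was at 2.34, 1.04 and 1.67 CPM against 3.33, 3.72 and 3.07 CPM (1.01 ± 0.31); it is a close copy of the X-linked ribosomal gene Rps4x, so its reads could be split between copies.

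Since 2 of the 3 wild types and none of the knockouts expressed Xist, the same genes were fitted with sex as a covariate, which leaves E47wt replicate 2 as the wild type of the knockouts' sex. All 19 kept their sign. The difference shrank by more than 1.5 times for Cntn1 (-0.47), Syt1 (-0.72), Pcdh15 (-0.50), Plppr5 (-0.39) and Dpp10 (-0.38), and grew for Zic4 (1.92) and Rps4l (1.70). How far sex accounts for the rest of these differences cannot be told apart from genotype with 1 such wild type.

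**Figure D1:**
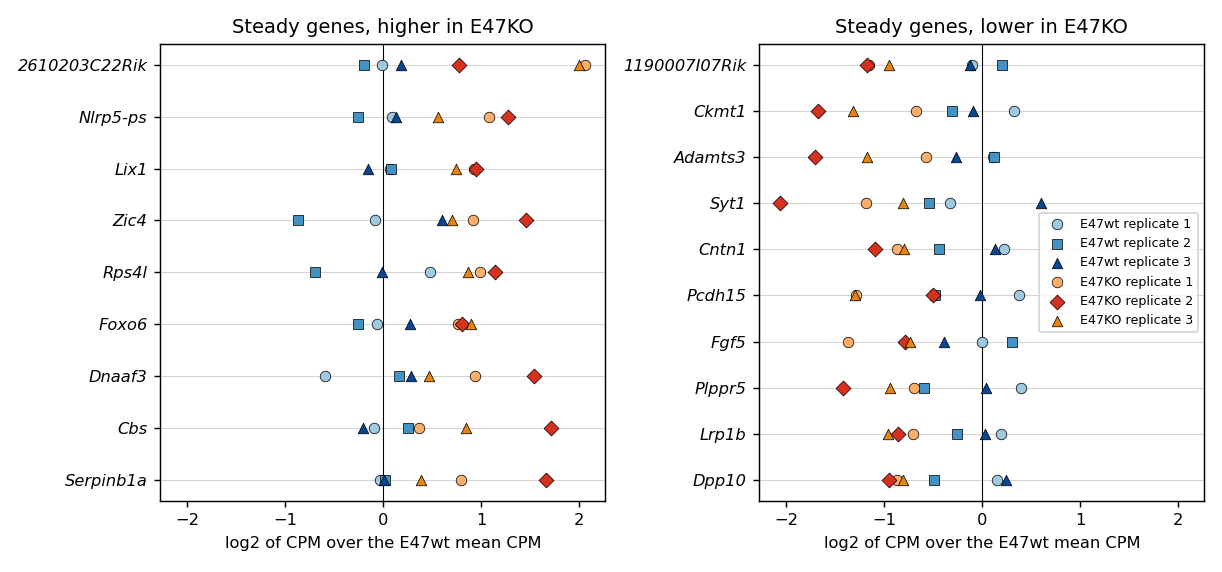
Log2 of CPM over the E47wt mean CPM for the 19 steady genes, with E47wt libraries and E47KO libraries as separate points and E47KO replicate 2 marked. By the rule that chose them, in every gene the 3 knockout libraries lie on one side of the 3 wild types. Pcdh15, with 10.9 and 10.8 CPM at the facing edges, has almost no gap.

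The promoters of these genes were searched for CAGCTG and CAGGTG, the E-box forms E proteins are known to bind, on both strands (CAGGTG reads CACCTG on the other; CAGCTG is its own reverse complement). A promoter here is RefSeq's 250 bases before to 50 bases after the gene start, on GRCm38.p6, and the table held 14 of the 20 genes that the rule chose. Of these, 6 had at least 1 such letter match (42.9%), against 32.6% of 27025 promoters of all genes. Any CANNTG occurred in 71.4% and 72.2%. A match is no evidence of binding. The matches that lay before the start in 4 genes described above are shown because those genes differ between the groups, in the 250 bases before the start, 5′ to 3′ along the gene, with the E-box in capitals. The first, on chr7:4532466-4532715 (minus strand), has its E-box 26 bases before the start, counted from the first base of the motif.
Dnaaf3: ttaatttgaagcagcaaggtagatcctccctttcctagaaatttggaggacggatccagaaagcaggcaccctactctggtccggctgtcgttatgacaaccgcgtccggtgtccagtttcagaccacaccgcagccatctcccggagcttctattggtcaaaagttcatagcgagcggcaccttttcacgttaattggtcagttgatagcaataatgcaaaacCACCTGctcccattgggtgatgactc
In Dpp10 the match lies at the far end, 247 bases before the start (chr1:124045560-124045809, minus strand).
Dpp10: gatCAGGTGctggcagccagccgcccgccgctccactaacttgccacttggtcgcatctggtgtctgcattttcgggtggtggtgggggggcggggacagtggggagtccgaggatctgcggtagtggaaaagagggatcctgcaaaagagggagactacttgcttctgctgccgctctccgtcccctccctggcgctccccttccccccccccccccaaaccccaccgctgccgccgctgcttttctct
In Pcdh15 it lies 102 bases before the start (chr10:73821617-73821866, plus strand).
Pcdh15: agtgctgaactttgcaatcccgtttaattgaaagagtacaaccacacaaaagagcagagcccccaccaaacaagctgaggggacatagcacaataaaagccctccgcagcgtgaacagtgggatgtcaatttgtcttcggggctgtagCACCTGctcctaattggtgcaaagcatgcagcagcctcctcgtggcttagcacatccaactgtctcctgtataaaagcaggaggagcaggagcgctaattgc
In Plppr5 it lies 54 bases before the start (chr3:117574977-117575226, plus strand).
Plppr5: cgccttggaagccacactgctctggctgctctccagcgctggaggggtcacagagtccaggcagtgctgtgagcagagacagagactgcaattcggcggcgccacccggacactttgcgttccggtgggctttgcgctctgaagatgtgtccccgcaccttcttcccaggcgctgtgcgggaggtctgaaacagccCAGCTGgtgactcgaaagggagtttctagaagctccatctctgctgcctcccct
The motifs thus lay at 4 unlike distances, and Dnaaf3 was higher in the knockout while Dpp10, Pcdh15 and Plppr5 were lower.

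DESeq2, run on the same counts, called 3 further autosomal genes. Plxdc2, a plexin-domain receptor (ENSMUSG00000026748, chromosome 2), was at 17.7, 17.9 and 15.5 CPM in E47wt and 10.5, 10.3 and 10.8 CPM in E47KO, a log2 fold change of -0.69 ± 0.14 (DESeq2 adjusted p 0.0245). Ccdc136, a coiled-coil protein (ENSMUSG00000029769, chromosome 6), was at 39.3, 39.4 and 40.5 CPM against 56.7, 58.9 and 54.5 CPM, 0.51 ± 0.10 (DESeq2 adjusted p 0.0320). In both genes the spread within groups was small, and leaving out replicate 2 left -0.68 and 0.49. The remaining gene was 1190007I07Rik, described above (DESeq2 adjusted p 0.0446). The authors' deposited table, made from counts of both strands, listed 10 of 12561 genes under an adjusted p of 0.05. Besides Tdg, Gm9855, Xist and these 3, the authors' deposited table gave Grik3, a kainate-type glutamate receptor, a log2 fold change of -0.78 and Diaph3, a formin of the actin skeleton, -0.63. The authors' deposited table also gave Cntn1 -0.90 and Gm10076 0.47.

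Replicate 2 of the knockout decided many of the larger differences. At 1.5-fold or more and a mean of at least 1 CPM, 336 autosomal genes were higher (2.83% of 11882) and 104 lower (0.875%), Tdg and Gm9855 left out. A gene was said to rest on a library when that library lay outside the range of the other 5 and its removal left under 33.3% of the log2 fold change or turned the sign. By this rule 246 of the higher genes (2.07% of 11882) and 4 of the lower ones (0.0337%) rested on E47KO replicate 2. No other library had more than 4 such genes in a direction. For the 336 higher genes the median log2 fold change went from 0.76 to 0.07 without replicate 2, and 133 changed sign. For the 104 lower genes it went from -0.69 to -0.56 and none changed sign. The imbalance depends in part on averaging: a fitted fold change follows the mean of the CPM, which 1 high library moves more than 1 low one. With the difference of mean log2 CPM instead, 65 of 121 higher and 33 of 96 lower genes rested on replicate 2. The displacement of the library itself went both ways, with 319 genes at least 2-fold above all other 5 libraries (2.68%) and 245 at least 2-fold below (2.06%); in the other libraries these counts were 0 to 3 and 1 to 10.

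**Figure D2:**
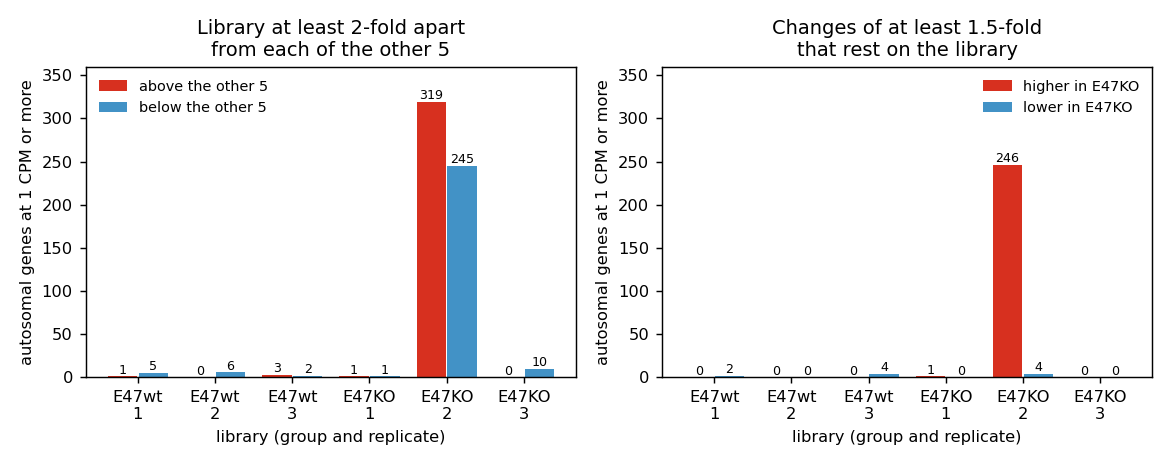
For each of the 6 libraries, the number of autosomal genes (of 11882) in which it lay at least 2-fold above or below the other 5, and the number whose difference rests on it. E47KO replicate 2 has 319, 245, 246 and 4 genes, and no other bar exceeds 10.

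The genes higher through replicate 2 that lost most of their difference without it have varied roles. Ndrg2, a gene enriched in astrocytes, was at 40.9, 39.9 and 25.1 CPM in E47wt and 31.8, 280 and 18.6 CPM in E47KO; its log2 fold change of 1.64 became -0.49 without replicate 2. Abca1, the pump that loads cholesterol onto apolipoproteins, was at 26.8, 22.1 and 7.98 CPM against 14.2, 149 and 7.33 CPM (1.58, then -0.82). Apoe, the main apolipoprotein of the brain, chosen after its values were seen, was at 48.3, 39.2 and 21.4 CPM against 44.8, 285 and 19.6 CPM (1.68, then -0.17). In all 3 the other knockout libraries lay within or below the wild-type range. Emp1, an epithelial membrane protein, was at 5.72, 8.93 and 1.54 CPM against 8.18, 54.1 and 3.13 CPM (2.01, then 0.06). Itih3, a heavy chain of inter-alpha-trypsin inhibitor, was at 2.67, 3.07 and 1.16 CPM against 2.71, 17.6 and 0.768 CPM (1.61, then -0.42). Kcnn2, a calcium-activated potassium channel, was at 5.09, 8.63 and 1.56 CPM against 4.92, 35.9 and 2.05 CPM (1.48, then -0.56), and Gsg1l, an auxiliary subunit of AMPA receptors, at 1.62, 1.67 and 0.791 CPM against 0.911, 8.24 and 0.447 CPM (1.22, then -1.02). The long RNA gene 9630028B13Rik was at 0.852, 1.56 and 0.150 CPM against 1.01, 9.38 and 0.214 CPM (2.03, then -0.52). The rule also named Olfml1 (1.29, then -0.94), the kinesin Kif19a (1.97, then -0.10) and Gm12108 (1.88, then -0.16). Replicate 2 was the highest library in all of them, as the rule requires.

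The 4 lower genes that rested on replicate 2 were Akap12, Scml4, Rasgrp3 and Hrk. Akap12, a scaffold for protein kinase A, was at 296, 262 and 274 CPM in E47wt and 231, 38.2 and 250 CPM in E47KO (-0.68, then -0.20). Scml4, a relative of Polycomb proteins, was at 17.1, 11.8 and 11.7 CPM against 12.7, 1.80 and 11.7 CPM (-0.62, then -0.14). Rasgrp3, an activator of Ras, went from -0.59 to -0.11 and Hrk, a pro-death BH3-only protein, from -0.62 to -0.16. Other genes in which replicate 2 was far below the rest, chosen after their values were seen, did not reach 1.5-fold over the group. Rapgef4, the cAMP-regulated exchange factor Epac2, was at 10.8, 9.49 and 7.32 CPM against 10.5, 0.999 and 10.6 CPM, and the amino acid transporter Slc7a1 at 204, 193 and 172 CPM against 212, 39.6 and 208 CPM. Spp1, osteopontin, was an exception: at 9.07, 7.11 and 9.41 CPM against 6.28, 1.19 and 5.74 CPM its difference was -0.95 with replicate 2 and -0.51 without.

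**Figure D3:**
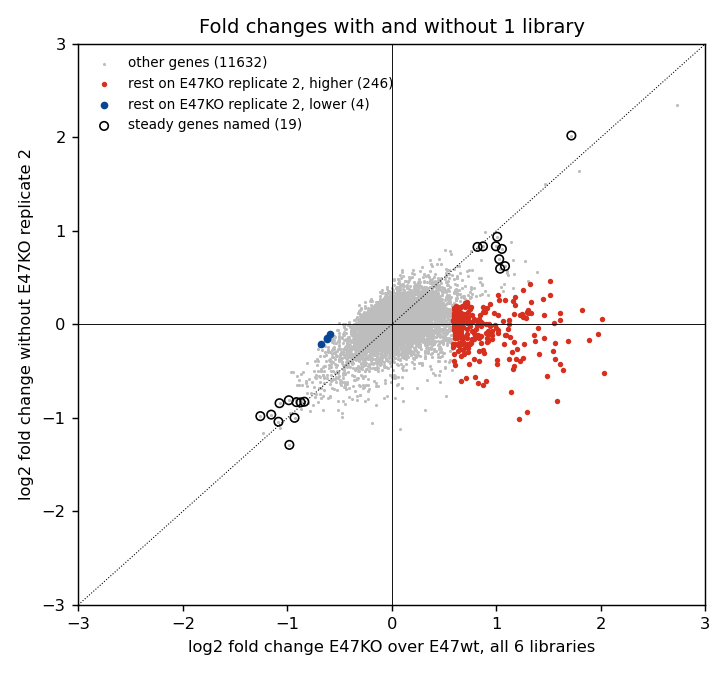
Log2 fold change of E47KO over E47wt with all 6 libraries (x axis) and without E47KO replicate 2 (y axis) for autosomal genes at a mean of at least 1 CPM; coloured points are the 246 higher and 4 lower genes that rest on it. By the rule that chose them, the red and blue points keep only a minor part of their difference on the y axis or change sign there. The rule for steady genes likewise places the 19 circled genes on the same side of 0 on both axes. The farthest point, at 2.73 and 2.35, is Otx2.

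The 246 genes also varied among the other libraries. E47wt replicate 3 was the lowest wild type in 179 of them (72.8%, against 38.8% of all 11882 genes), and E47KO replicate 3 lay below E47KO replicate 1 in 221 (89.8%, against 48.3%). In the E12 line replicate 3 was the lowest wild type in 107 (43.5%, against 38.9%). It lay at least 1.5-fold below the other E12 wild types in 27 (10.98%, against 2.63%). E12KO replicate 3 was the lowest E12 knockout library in 110 (44.7%, against 31.1%). The median E12 log2 fold change of the 246 genes was -0.04.

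A smaller number of genes differed in E47KO replicates 1 and 3 but not in replicate 2, and so were diluted by it. Of 11882 autosomal genes at a mean of at least 1 CPM, 5 higher and 41 lower were of this kind at 1.5-fold or more without replicate 2. Kcna6, a voltage-gated potassium channel, was at 34.4, 26.0 and 23.8 CPM in E47wt and 19.4, 30.7 and 11.8 CPM in E47KO, -0.45 with replicate 2 and -0.85 without. Scrg1 was at 2.03, 1.49 and 1.52 CPM against 0.911, 3.83 and 0.643 CPM, 0.08 and -1.12. Dmrta1, a DM-domain transcription factor, was at 2.06, 1.25 and 1.39 CPM against 0.744, 1.83 and 0.822 CPM. In these 3 genes replicate 2 lay within or above the wild types, which the choice of such genes requires. Car3, a carbonic anhydrase, was the clearest higher one, at 41.5, 34.4 and 35.3 CPM against 74.0, 39.9 and 51.2 CPM (0.57 and 0.76). Without replicate 2, an unadjusted p under 0.05 was reached by 201 higher (1.42%) and 274 lower (1.94%) of 14119 autosomal genes. Of the genes tested in both fits, 193 were shared with the 303 of the full comparison, 63.7% of those and 40.6% of the 475.

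Gene lists show which functions replicate 2 carried. As a baseline it was the highest of the 6 libraries in 34.7% and the lowest in 34.8% of autosomal genes, 49.4% of which had a log2 fold change above 0, with a median of -0.00. Proliferation genes were lowest in replicate 2 in 17 of 20 cases, and their summed level was 4047 CPM there against 6398 to 7887 CPM in the other 5 libraries. Ccnd1, cyclin D1, was at 770, 685 and 925 CPM in E47wt and 816, 173 and 909 CPM in E47KO. Ccnd2, cyclin D2, was at 721, 685 and 806 CPM against 621, 168 and 879 CPM. Both cyclins were alike in the other 5 libraries and far lower in replicate 2, as were Mcm3 and Mcm6, subunits of the replicative helicase, and Ccne1, cyclin E1. The median log2 fold change of the list was -0.13 with replicate 2 and 0.07 without, and 19 of 20 genes lay above 0 without it.

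Cholesterol synthesis genes were also low in replicate 2, in 16 of 18 cases, with a summed 3199 CPM against 4496 to 6251 CPM. Idi1, isopentenyl diphosphate isomerase, was at 156, 168 and 130 CPM in E47wt and 159, 59.8 and 146 CPM in E47KO, and Sqle, squalene epoxidase, at 454, 461 and 376 against 454, 212 and 410 CPM. The list's median was -0.24 with and -0.00 without replicate 2. Of 18 p53 targets 11 were lowest in it (-0.17 and -0.11). The summed level of all autosomal genes was lowest in replicate 2, 896389 against 931942 to 957933 CPM. This sum depends on the scaling factor of each library and is no measure of its RNA content.

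Astrocyte genes were highest in replicate 2 in 11 of 16 cases, with a summed 3603 CPM against 1654 to 2429 CPM and a median of 0.46 with and 0.05 without it. In bulk libraries, fewer cells of a type and less RNA per cell cannot be told apart. Aqp4, the water channel of astrocytes, was at 4.89, 4.001 and 1.67 CPM in E47wt and 4.77, 24.0 and 2.36 CPM in E47KO. Cst3, cystatin C, was at 157, 125 and 93.5 CPM against 160, 450 and 91.6 CPM, and S100b, a calcium-binding protein of glia, at 4.07, 3.55 and 1.90 against 2.902, 9.05 and 1.27 CPM. Gfap, the intermediate filament that defines mature astrocytes, was at 0.275 to 0.947 CPM in all 6 libraries, and replicate 2 was not its highest. By the rule above 3 of the 16 rested on replicate 2 (2.07% of 11882 autosomal genes did, in the higher direction). Without overlap 2 of the 16 were higher (4.16% of all autosomal genes). Aldh1l1 had a log2 fold change of 1.14 with and 0.88 without replicate 2. Gja1, a steady gene, had 0.67 with all libraries and at least 0.39 in every leave-one-out fit. Oligodendrocyte lineage genes were highest in replicate 2 in 5 of 13 cases (38.5%), near the 34.7% of all autosomal genes, with a median of 0.06 with and -0.18 without it. Of these, Sox10, a lineage transcription factor, was at 3.38, 2.73 and 2.18 against 4.08, 13.5 and 1.86 CPM, and the myelin gene Cnp at 120, 114 and 111 against 117, 304 and 86.4 CPM. Olig2, an E-protein partner of the lineage, was not: it was at 269, 261 and 438 against 266, 265 and 431 CPM.

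Notch pathway genes were highest in replicate 2 in 13 of 20 cases, with a summed 3522 CPM against 1957 to 2306 CPM and a median of 0.28 with and -0.01 without it. The receptor Notch1 was at 216, 231 and 234 CPM in E47wt and 252, 484 and 246 CPM in E47KO, and the effector Hes5, a repressor that holds progenitors undifferentiated, at 411, 358 and 361 against 498, 967 and 365 CPM. The ligand Dll3 was at 15.3, 14.3 and 11.9 against 16.5, 37.99 and 11.5 CPM. Lfng, the sugar transferase that tunes Notch for its ligands, did not rest on replicate 2: it was at 110, 101 and 111 against 145, 189 and 135 CPM, 0.54 ± 0.14 with all libraries and 0.38 without replicate 2.

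**Figure D4:**
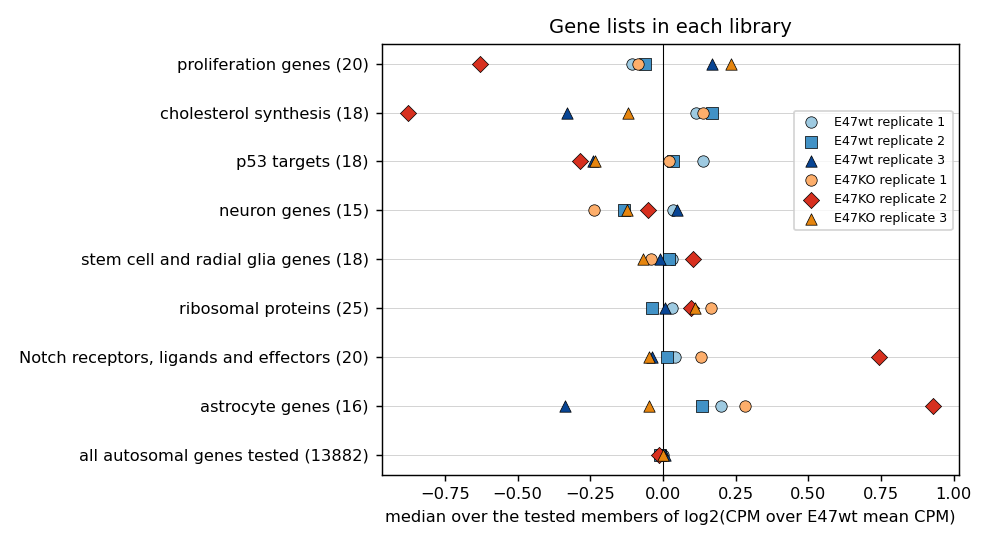
Median log2 ratio to the E47wt mean of each gene list, by library. E47KO replicate 2 lies at -0.63 for proliferation genes, -0.88 for cholesterol synthesis, 0.93 for astrocyte genes and 0.74 for Notch genes, outside the range of the other 5 libraries.

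Neuron genes were below 0 in 11 of 15 cases with it and 15 of 15 without (medians -0.14 and -0.20). Dcx, doublecortin of migrating neurons, was at 31.2, 25.6 and 31.0 CPM in E47wt and 17.9, 29.6 and 14.1 CPM in E47KO, so only replicate 2 reached the wild types. Gap43, a growth-cone protein, went the other way, at 157, 135 and 229 against 112, 41.1 and 173 CPM. Ribosomal protein genes were above 0 in 18 of 25 cases (23 without replicate 2), 13 of them without overlap between the groups (4.16% of all autosomal genes were higher without overlap). Rplp1, of the ribosomal stalk, was at 295, 234 and 306 against 407, 416 and 318 CPM. Rps15, of the small subunit, was at 335, 307 and 347 against 416, 428 and 357 CPM. These differences were small, with a list median of 0.14 with and 0.15 without replicate 2, and 7 of the 13 stayed without overlap after the correction for GC content and span. Of 11 Sonic hedgehog pathway genes 8 were above 0 and 5 were higher without overlap, where 4.16% of all autosomal genes were; Gli2, a transcription factor of the pathway, was at 8.85, 9.41 and 6.93 against 12.6, 14.2 and 9.93 CPM (0.54 ± 0.20). Gas1, a co-receptor for Sonic hedgehog, was at 36.8, 42.3 and 41.0 against 45.0, 54.3 and 47.7 CPM (0.29 ± 0.12).

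Markers of other cell types were then read in all 6 libraries. Of those listed, 2 of 11 for microglia, 1 of 7 erythroid, 8 of 13 for mesenchyme and meninges, 6 of 10 for endothelium, 6 of 10 for ependyma and choroid plexus, and 5 of 8 for neural crest passed the low-count filter. Their summed levels were 2.83 to 9.56 CPM in E47wt and 3.30 to 9.04 CPM in E47KO for microglia, 0.171 to 0.275 and 0.139 to 0.288 CPM for erythroid cells, 31.9 to 69.4 and 45.8 to 63.2 CPM for mesenchyme, and 6.27 to 8.41 and 3.55 to 7.25 CPM for endothelium. No read fell on the erythroid genes Slc4a1, Epb42 and Hbb-y, the ependymal gene Tmem212 or the neural crest gene Foxd3 in any of the 6 libraries. Neural crest markers summed to 12.7 to 18.5 CPM in E47wt and to 17.7, 55.4 and 9.67 CPM in E47KO, with Sox10, which is also on the oligodendrocyte list, among the high ones in replicate 2. Ependyma and choroid plexus markers summed to 16.0 to 23.5 CPM and to 46.5, 56.5 and 18.96 CPM. Of these, Otx2, a transcription factor of anterior brain and choroid plexus, was at 6.19, 0.908 and 0.214 CPM in E47wt and 24.0, 23.4 and 0.357 CPM in E47KO. Whether other cells had a part in the differences above was not tested.

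The genes around Tcf3 on chromosome 10, which include Tdg, were read as a group. Of the 100 genes on each side, 130 were tested. The groups did not overlap in 20 higher and 4 lower of them, 18.5% in both directions together. Of all autosomal genes, 4.16% were higher and 3.76% lower without overlap. Tdg and 1190007I07Rik are among the 4 lower neighbours. The median log2 fold change was 0.16, against 0.03 for the same genes in the E12 line. These genes had a median GC content of 57.8%, against 49.7% of all. After the correction for GC content and span 11 of the 130 had no overlap (8.46%, against 5.34% of autosomal genes at 1 CPM or more). Their median log2 fold change was then 0.02. Among the neighbours without overlap, the largest differences beside Tdg were 1190007I07Rik, described above, Gm4799, at 0.330, 0.389 and 0.364 CPM in E47wt and 0.648, 0.583 and 0.500 CPM in E47KO, and Sirt6, a histone deacetylase, at 6.49, 6.49 and 8.77 against 9.35, 14.3 and 9.36 CPM (0.60). Gm4799 was counted with few reads, and in Sirt6 replicate 2 was the highest library.

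Across all genes the difference moved with base composition. From the lowest to the highest quintile of GC content the median log2 fold change went from -0.10 to 0.17 (-0.05 to 0.10 without replicate 2), and the share of genes with all knockouts above all wild types from 0.673% to 12.1%. The share with all knockouts below went from 6.06% to 0.757%. By gene span the medians went from 0.07 for the shortest to -0.08 for the longest quintile, and knockouts lay below in 1.30% and 10.01%. After subtracting this trend in each library, 188 of the 486 steady higher genes (38.7%) and 189 of the 458 lower ones kept all knockouts on the same side. Of the steady genes chosen by the rule, 10 of 10 higher and 8 of 10 lower kept it; Pcdh15 and Plppr5 did not. The difference shrank by more than 1.5 times for Foxo6 (0.52) and Lrp1b (-0.55). The 10 lower genes had a median span of 249 kb, against 25.1 kb of all. Whether the trend is technical was not tested.

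**Figure D5:**
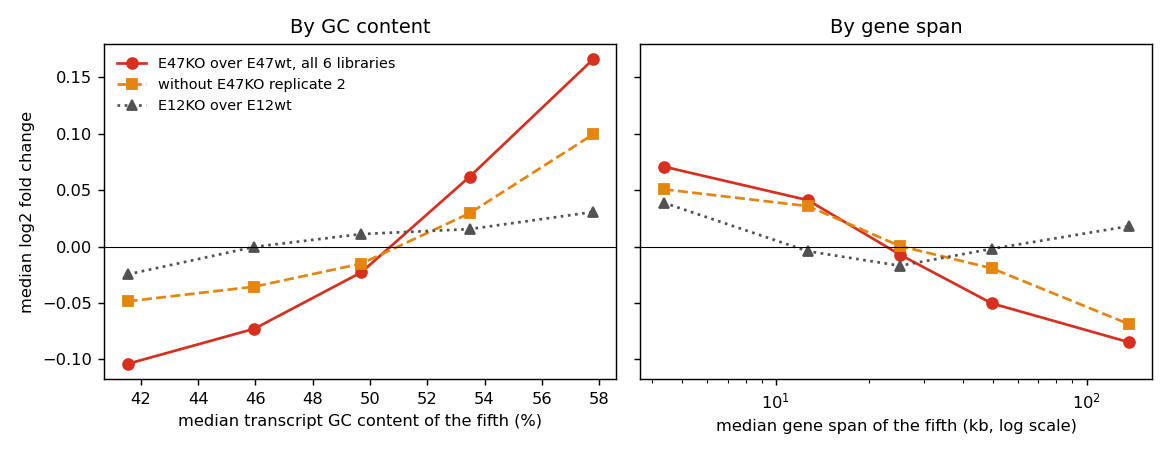
Median log2 fold change of E47KO over E47wt by quintile of GC content and of gene span, with all 6 libraries, without E47KO replicate 2 and in the E12 line. The E47 medians climb from -0.10 to 0.17 with GC content and drop from 0.07 to -0.08 with span; the E12 medians move from -0.02 to 0.03 and from 0.04 to 0.02.

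The steady genes were then read in the E12 line, whose libraries had no part in choosing them. Of all steady genes 73.0% of the higher ones were also above 0 there and 60.5% of the lower ones below 0, against 51.8% and 48.2% of all autosomal genes. Their median E12 log2 fold changes were small, 0.07 and -0.04. The higher ones had a median GC content of 56.4% and the lower ones 45.9%, against 49.7% of all. The E12 medians also moved with GC content, from -0.02 in the lowest to 0.03 in the highest quintile. Whether composition had a part in the shared signs was not tested. Of the 10 lower genes 8 had the same sign, with a median of -0.85. Cntn1 in the E12 wild types was at 168, 130 and 217 CPM, and in the knockouts at 130, 75.5 and 59.0 CPM, and Adamts3 at 47.2, 46.6 and 49.3 against 31.2, 25.9 and 22.9 CPM. Their E12 log2 fold changes were -0.95 ± 0.28 and -0.83 ± 0.11. Of the 10 higher genes 7 had the same sign, but the median was 0.07. The exception was 2610203C22Rik, at 0.459, 0.514 and 0.416 CPM in wild types and 1.69, 2.83 and 2.78 CPM in knockouts of that line, 2.39 ± 0.28, which passed in that line (edgeR adjusted p 0.0376).

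Several genes moved only little or the other way in the E12 line. Lix1 was at 1.97, 3.06 and 2.45 CPM in the E12 wild types against 2.07, 2.05 and 2.35 CPM in the knockouts, with a difference of -0.20 ± 0.20. Plxdc2 was at 14.52, 14.3 and 13.6 against 12.5, 15.3 and 16.6 CPM (0.07 ± 0.12), and Fgf5 at 1.36, 1.05 and 1.25 against 1.35, 1.35 and 1.64 CPM (0.25 ± 0.21). The difference between the 2 knockout effects was tested as an interaction over all 12 libraries, and edgeR called 0 of 15277 genes (0.0%), with 463 at an unadjusted p under 0.05; DESeq2 called 1, Xist. The interaction of Plxdc2, Lix1 and Fgf5 had an edgeR adjusted p of 0.932 each, so these genes are not shown to differ between the lines.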

How the data were processed

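The labels' protocols name a TruSeq stranded mRNA kit. The submitters' processing notes list STAR 2.5, the mm9 build, DESeq and DESeq2. The sources used here give no annotation release. Counts per gene were deposited by the authors for every library, and the opposite-strand counts, 97.1 to 97.2% of the strand-assigned gene reads, were used. Reads on no gene or on several (6.87 to 8.18%) were left out. The authors' deposited table of the E47 comparison holds normalized signal (not used), log2 fold changes, a score and p-values; entries that repeat a gene were used once. Names came from a GRCm38 reference, which named 32897 of 37620 gene IDs.

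The 6 E47 libraries were fitted in R 4.3.3 with edgeR 4.0.16 (quasi-likelihood test, its low-count filter, TMM, BH adjustment, prior count 0.125). CPM are TMM-scaled. Values after ± are standard errors. DESeq2 1.42.0 and other settings are given in the closing section. The fit was checked on simulated counts. The E12 line was fitted in its own 6 libraries, the interaction in all 12, and E12 CPM come from scaling all 12 together. The GC and span correction, the mean log2 CPM comparison (pseudocount 0.5 CPM) and the correction joined with the replicate block were added after seeing the data. Members, rules and the 30 lists (457 entries) were chosen with earlier results of these data known. Steady genes and genes resting on 1 library were named by rule, 10 a direction by the largest remaining or lost fold change; list members beyond the 2 highest and 2 most changed, and those said to be so, were chosen after their values were seen. Some items are not reported here.

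Deviations from the group mean correlated across genes at 0.118, 0.230 and 0.467 between E47wt and E47KO libraries of replicate number 1, 2 and 3. The highest correlation between unlike numbers was 0.150, for E47wt replicate 1 and E47KO replicate 2, so only replicates 2 and 3 exceeded it. The replicate number was also fitted as a block. No label says what a number stands for. Replicates of a group differed by more than sampling noise (chi-square over its degrees of freedom of 13.2 or more).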

Additional observations from a re-analysis of the deposited data

Results flagged for a closer look

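Lrp1b, a receptor of the LDL receptor family, was below all wild types in all 3 E47KO libraries and above all wild types in all 3 E12KO libraries. Its log2 fold change was -0.84 in the E47 line and 0.22 in the E12 line, where E12wt was at 2.78, 2.91 and 2.80 CPM and E12KO at 3.76, 3.00 and 3.09 CPM. The edgeR interaction test of this difference had an adjusted p of 0.932 (unadjusted 0.0011), so it fails the correction over all genes.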

How the results depend on the processing

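Of 2256 values recomputed for named genes and group summaries, 2105 kept their direction and side of the threshold or moved by less than the error, 143 moved, 5 lost and 3 gained a call, and 0 reversed a call. The setting that moved the most values was leaving out E47KO replicate 2, with 54 of 176. The 2 called genes became 6 with DESeq2, 1 with a sex covariate and 0 to 7 when libraries were left out in turn. Tdg had an edgeR adjusted p of 0.252 with the sex covariate, 0.102 without E47wt replicate 1, 0.0882 without E47wt replicate 3 and 0.0560 without E47KO replicate 1, and Gm9855 0.0712 without E47wt replicate 3. The 328 genes at an unadjusted p under 0.05 became 495 with no filter, 98 with the sex covariate, 787 with all 12 libraries, 202 with the GC and span correction, and 149 to 1416 when libraries were left out, highest without E47KO replicate 3. Genes without overlap, 578 higher and 522 lower, numbered 883 to 2051 and 819 to 2175 with a library left out, since fewer samples overlap less often by construction. With the replicate block the 328 became 493, and both called genes stayed called.

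The 246 higher genes resting on E47KO replicate 2 became 71 at 2-fold and 65 by mean log2 CPM, and the 4 lower ones 0 at 2-fold, 15 where under 50% in place of 33.3% of the difference had to be left, 7 with counts of both strands and 33 by mean log2 CPM. With 50 genes a side, the 24 neighbours of Tcf3 without overlap became 13. There 72 in place of 130 were tested, a share of 18.1% in place of 18.5%. After the GC and span correction 11 of the 130 had no overlap (8.46%, against 5.34% of autosomal genes at 1 CPM or more). The E-box share of 42.9% became 71.4% for any CANNTG. For the interaction, DESeq2 gave 1 gene in place of 0. The 7 genes called without E47wt replicate 2 came from a fit in which sex and genotype cannot be told apart. The wild types left there expressed Xist and all knockouts had Y-linked transcripts. The causes of these moves were not tested. At 3 reads or fewer a library, 0.0528 to 0.0869 CPM, levels cannot be told from 0.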
